A study of Mus musculus with 10 samples.

Results

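Activins and the transforming growth factor beta (Tgfb) proteins are secreted dimers of the same superfamily as the Bmps. The 10 genes described here are the activin subunits Inhba and Inhbb, the activin-binding protein follistatin (Fst), the ligands Tgfb1, Tgfb2 and Tgfb3, and 4 receptors, Acvr2a, Acvr2b, Acvr1b and Tgfbr2. They were chosen by name, by their Ensembl gene in the table of values, and all 10 were among the 27528 genes measured. The choice was made with earlier results of these data known. Tooth germs of the first molar of NMRI mice, an outbred laboratory stock, were compared at embryonic stages E13.5 (the bud) and E14.5 (the cap). All embryos were wild type, with no treatment named, and each of the 5 arrays per stage, a biological replicate by the study's methods, was made from RNA of 12 to 18 pooled germs, dissected with little surrounding tissue and therefore holding epithelium and mesenchyme together.

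An activin or Tgfb dimer binds a type II receptor, which is a kinase that then activates a type I receptor, and the type I receptor phosphorylates Smad2 and Smad3. These enter the nucleus together with Smad4. Activins use the type II receptors Acvr2a and Acvr2b with the type I receptor Acvr1b, whereas Tgfb ligands use Tgfbr2 with Tgfbr1. Follistatin wraps around activin and keeps it from its receptors. In the tooth, activin A, the dimer of the Inhba product, is known as a signal made by dental mesenchyme. The lower molar needs it to pass the bud stage. Follistatin is known from the epithelium, where its loss changes cusp pattern. In the study's catalogue of mouse mutants Inhba and Acvr2a stand among the genes without which the tooth arrests, Fst among those that alter tooth shape, and Acvr2b among those whose loss arrests the tooth only in combination with that of a related gene.

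The sequence before the transcription start is shown for the 4 ligand genes whose signals differed between the stages, because the sections that follow turn on them. RefSeq promoter entries on GRCm38.p6 matched 8 of the 10 genes, and Fst and Tgfb3 had no entry. Each sequence holds the 250 bases before the start, read 5′ to 3′ on the strand of the gene, and capitals mark matches to CAGAC, the Smad-binding element, to TGANTCA, the AP-1 site, or to TATAAA, the TATA box, searched on both strands.
Inhba: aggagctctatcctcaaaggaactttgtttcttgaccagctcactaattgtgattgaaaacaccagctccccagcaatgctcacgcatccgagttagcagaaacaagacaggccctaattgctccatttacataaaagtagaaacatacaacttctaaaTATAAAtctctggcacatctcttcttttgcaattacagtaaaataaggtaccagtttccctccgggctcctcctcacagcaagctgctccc
Inhbb: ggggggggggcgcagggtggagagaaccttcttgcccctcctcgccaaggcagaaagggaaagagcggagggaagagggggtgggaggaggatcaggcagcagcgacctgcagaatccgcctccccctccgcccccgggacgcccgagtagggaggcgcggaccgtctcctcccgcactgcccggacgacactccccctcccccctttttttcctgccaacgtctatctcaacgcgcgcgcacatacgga
Tgfb1: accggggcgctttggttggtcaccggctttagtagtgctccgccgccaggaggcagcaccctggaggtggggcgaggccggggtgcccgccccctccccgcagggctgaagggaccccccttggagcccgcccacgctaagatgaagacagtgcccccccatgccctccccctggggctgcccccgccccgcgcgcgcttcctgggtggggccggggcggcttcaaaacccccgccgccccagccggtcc
Tgfb2: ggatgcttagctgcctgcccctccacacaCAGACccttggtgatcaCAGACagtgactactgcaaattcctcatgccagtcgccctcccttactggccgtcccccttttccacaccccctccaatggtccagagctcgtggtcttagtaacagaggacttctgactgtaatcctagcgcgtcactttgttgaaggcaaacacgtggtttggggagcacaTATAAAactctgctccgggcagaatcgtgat
The Inhba sequence lies at chr13:16011601-16011850 on the plus strand, within the RefSeq span of the gene itself (16004256 to 16031609), whose first base is farther upstream. The Inhbb sequence, at chr1:119422249-119422498 on the minus strand, and the Tgfb1 sequence, at chr7:25686752-25687001 on the plus strand, lie just outside their genes. The Tgfb2 sequence is at chr1:186705990-186706239 on the minus strand, inside the RefSeq span of the gene (186622787 to 186709697). Inhba held 1 TATAAA, 91 bases before the start, and Tgfb2 held 1 TATAAA, 31 bases before the start, a motif found in 12.4% of 32851 promoter windows of the same length. Tgfb2 also held CAGAC at 221 and at 204 bases before its start, and 42.2% of windows held at least 1 CAGAC. Neither Inhbb nor Tgfb1 held any of the motifs, and TGANTCA, present in 6.75% of windows, was in none of the 4. The share of G and C was 43.2% for Inhba and 53.6% for Tgfb2 against 68% for Inhbb and 75.2% for Tgfb1, with a median of 52.4% over all windows.

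The first question was which of the ligands and receptors differed between the bud and the cap. Of the 5 ligand genes and follistatin, 4 were higher in the cap (Tgfb1, Fst, Tgfb2 and Inhbb), Inhba was lower, and Tgfb3 did not pass the test. None of the 4 receptors passed. These 5 of 10 genes had an adjusted p under 0.05 (limma, E14.5 minus E13.5, adjusted over all genes), where 7.85% of all 27528 genes did, 4.36% being higher and 3.49% lower at E14.5. The median change of the 10 genes was 0.10 log2 units, since rises and falls were mixed, and that of all genes was -0.01. The values are gene signals read on the log2 scale, so that 1 unit is a doubling of signal. The signal of a gene depends on how well its probes bind, and levels of different genes are therefore not compared as amounts of RNA.

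**Figure D1:**
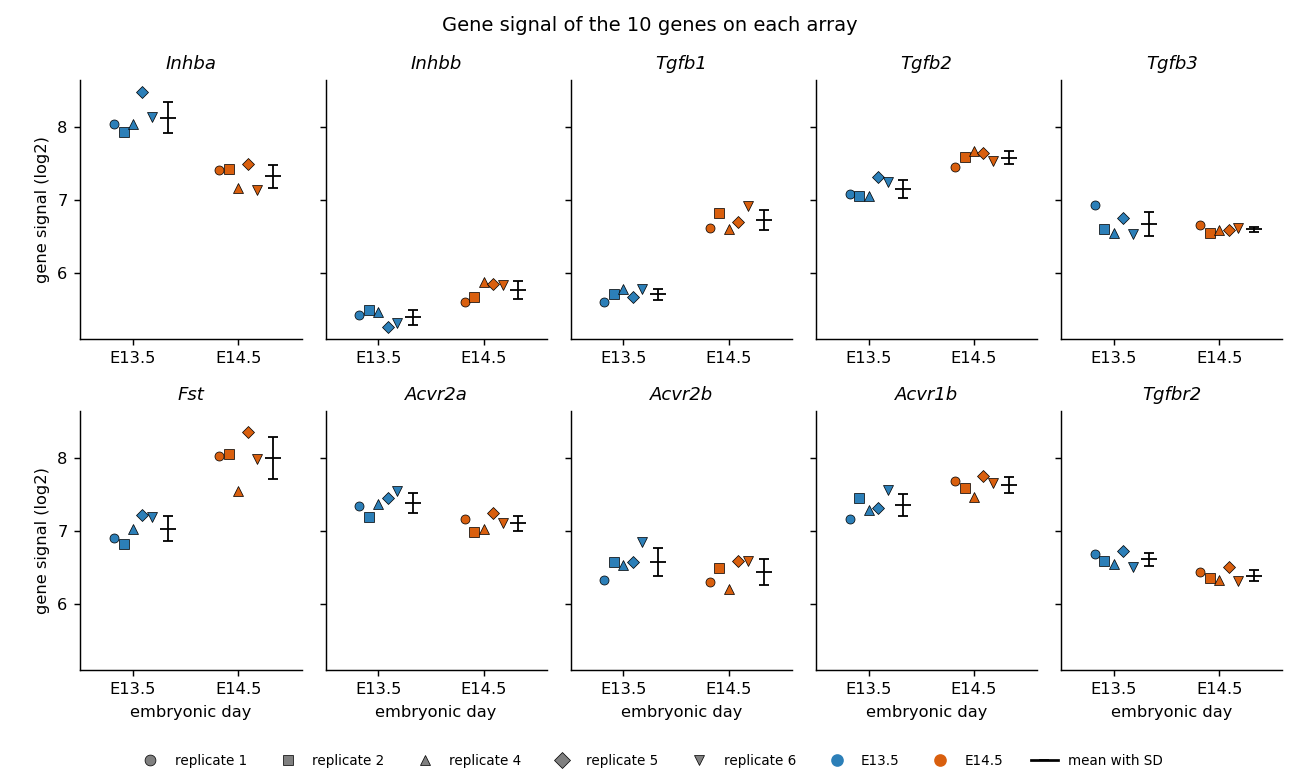
Gene signal (log2, vertical axis) of the 10 genes at E13.5 and E14.5. Each point is 1 array, its shape gives the replicate number, and the bar shows the mean with the SD of 5 arrays; the arrays of the stages do not overlap for Inhba, Inhbb, Tgfb1, Tgfb2, Fst and Tgfbr2.

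Inhba (ENSMUSG00000041324) encodes the beta A subunit, which forms activin A. Its signal on the E13.5 arrays was 8.03, 7.93, 8.04, 8.48 and 8.13 (replicates 1, 2, 4, 5 and 6, the order used throughout), and on the E14.5 arrays it was 7.41, 7.42, 7.17, 7.49 and 7.14. Every cap array lay below every bud array, with a gap of 0.45 between the nearest arrays of the stages. The mean was 8.13 ± 0.21 (SD, n = 5) at E13.5 and 7.32 ± 0.16 (SD, n = 5) at E14.5. The signal thus fell by 0.80 ± 0.11 (SE) log2 units, or 1.74-fold, with a 95% interval from -1.04 to -0.56 (limma, adjusted p = 0.000804). Of all genes, 1.18% had a change of at least this size in either direction. E13.5 replicate 5 was the highest array of the set, and the change without it was the smallest of those with any single array left out, at -0.71.

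Inhbb (ENSMUSG00000037035) encodes the beta B subunit of activin B. It moved the opposite way to Inhba. The signal was 5.44, 5.49, 5.47, 5.27 and 5.31 at E13.5 and 5.61, 5.68, 5.88, 5.86 and 5.84 at E14.5, so that the lowest cap array was above the highest bud array by 0.12. The mean rose from 5.40 ± 0.10 to 5.77 ± 0.12 (SD, n = 5 each), a change of 0.38 ± 0.08 (SE) log2 units (limma, adjusted p = 0.00998). Inhbb lay nearest to the array medians, 5.06 to 5.22, of all 10 genes, and whether its signal stood above background could not be examined.

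Fst (ENSMUSG00000021765), the antagonist, was higher in the cap. Its signal was 6.91, 6.83, 7.03, 7.23 and 7.19 at E13.5 and 8.03, 8.05, 7.55, 8.36 and 7.98 at E14.5. All cap arrays were above all bud arrays, and E14.5 replicate 4 was the lowest of the cap arrays, 0.33 above the highest bud array. The means were 7.04 ± 0.17 and 7.99 ± 0.29 (SD, n = 5 each), and the change was 0.96 ± 0.14 (SE) log2 units or 1.94-fold (95% interval 0.66 to 1.25; limma, adjusted p = 0.000906). Fst had the widest spread of the 10 genes among the cap arrays. Including Fst, 101 genes rose by as much or more.

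The opposite movement of ligand and antagonist was followed on each array as the signal of Fst minus that of Inhba. On the bud arrays this difference was -1.13, -1.11, -1.01, -1.26 and -0.94, and on the cap arrays it was 0.62, 0.63, 0.39, 0.87 and 0.84. The sign was thus negative on every bud array and positive on every cap array. The mean went from -1.09 ± 0.12 to 0.67 ± 0.20 (SD, n = 5 each), a shift of 1.76 log2 units. The sign itself carries no meaning for amounts, because it depends on the probes of both genes, and only the shift compares the stages. For the subunits, Inhbb minus Inhba went from -2.73 ± 0.30 to -1.55 ± 0.24, a shift of 1.18.

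**Figure D2:**
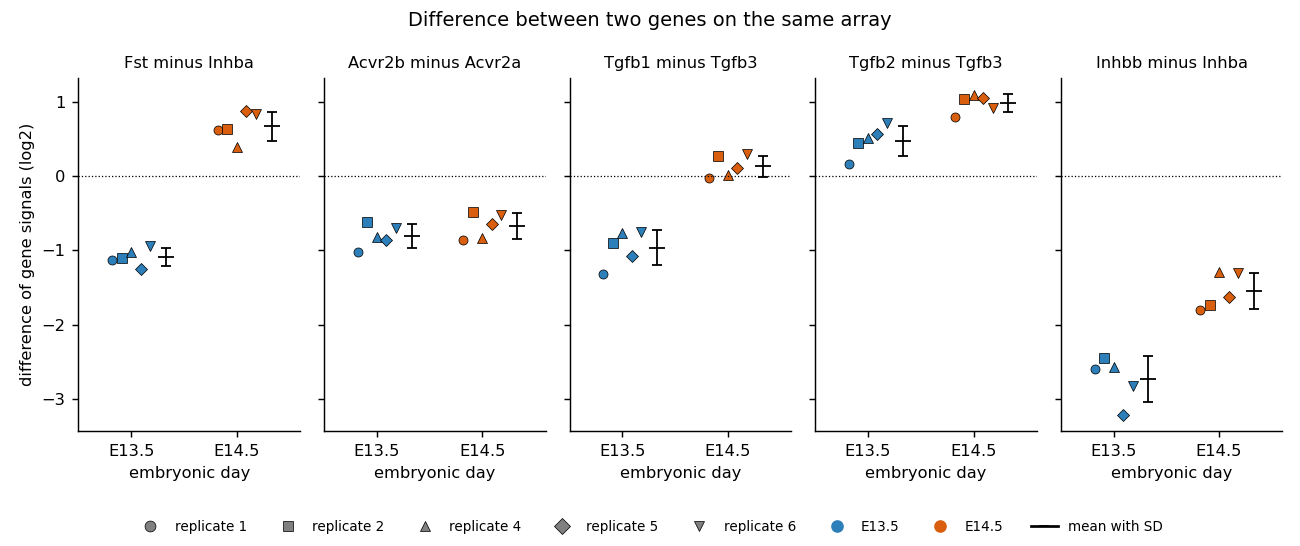
Difference between the log2 signals of 2 genes on the same array (vertical axis) for 5 pairs at E13.5 and E14.5. Points are arrays, shapes are replicate numbers and bars are the mean with the SD of 5 arrays; Fst minus Inhba lies between -1.26 and -0.94 in the bud and between 0.39 and 0.87 in the cap, whereas Acvr2b minus Acvr2a overlaps between the stages.

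Tgfb1 (ENSMUSG00000002603), the founding Tgfb ligand, known for restraining epithelial growth and for promoting matrix production, had the largest change of the 10 genes in this fit. The signal was 5.61, 5.71, 5.78, 5.68 and 5.78 at E13.5 and 6.62, 6.82, 6.60, 6.69 and 6.91 at E14.5. The stages were 0.82 apart at their nearest arrays, far more than either stage spread within itself. The mean rose from 5.71 ± 0.07 to 6.73 ± 0.13 (SD, n = 5 each), by 1.02 ± 0.08 (SE) log2 units or 2.02-fold (95% interval 0.85 to 1.18; limma, adjusted p = 1.1e-05). A change of at least this size was found for 0.610% of all genes.

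Tgfb2 (ENSMUSG00000039239), the isoform whose loss in mice is known to affect the heart and the craniofacial skeleton, rose by less. Its signal was 7.09, 7.06, 7.05, 7.31 and 7.24 in the bud and 7.45, 7.58, 7.68, 7.64 and 7.54 in the cap. The arrays did not overlap, the nearest being 0.14 apart. The mean rose from 7.15 ± 0.12 to 7.58 ± 0.09 (SD, n = 5 each), a change of 0.43 ± 0.07 (SE) log2 units (limma, adjusted p = 0.00379).

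Tgfb3 (ENSMUSG00000021253), known for its part in closure of the palate, gave no detectable change. Its signal was 6.93, 6.61, 6.55, 6.75 and 6.54 at E13.5 and 6.65, 6.55, 6.59, 6.59 and 6.62 at E14.5. All cap arrays fell inside the range of the bud arrays, among which replicates 1 and 5 were the highest. The difference was -0.07 ± 0.08 (SE) log2 units with a 95% interval from -0.25 to 0.10 (limma, adjusted p = 0.743), and -0.011 without E13.5 replicate 1. On the same arrays Tgfb1 minus Tgfb3 shifted by 1.09 and Tgfb2 minus Tgfb3 by 0.50 log2 units, shifts that were not tested.

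The receptors differed by smaller amounts, from -0.27 to 0.28 log2 units, and none of the 4 passed the threshold. Acvr2a (ENSMUSG00000052155), a type II receptor for activins, read 7.35, 7.20, 7.37, 7.45 and 7.55 in the bud and 7.17, 6.98, 7.03, 7.24 and 7.11 in the cap. Only E14.5 replicate 5 reached into the range of the bud arrays. The difference was -0.27 ± 0.08 (SE) log2 units (95% interval -0.45 to -0.10; limma, adjusted p = 0.0622). Acvr2b (ENSMUSG00000061393), the other activin type II receptor, read 6.33, 6.58, 6.54, 6.58 and 6.85 in the bud and 6.31, 6.50, 6.20, 6.59 and 6.59 in the cap. Its stages overlapped over most of their range, and the difference was -0.14 ± 0.11 (SE) with an interval from -0.37 to 0.10 (limma, adjusted p = 0.586). It was -0.07 without E13.5 replicate 6 and -0.08 without E14.5 replicate 4. On each array Acvr2b minus Acvr2a was between -1.02 and -0.61 at E13.5 and between -0.86 and -0.49 at E14.5, a shift of 0.14 that is within the spread of either stage (SD 0.16 and 0.17).

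Acvr1b (ENSMUSG00000000532), the type I receptor of activins, pointed upward. Its signal was 7.16, 7.46, 7.29, 7.32 and 7.56 in the bud and 7.69, 7.59, 7.46, 7.76 and 7.66 in the cap. E14.5 replicate 4, the lowest cap array, lay among the bud arrays. The difference was 0.28 ± 0.09 (SE) log2 units (95% interval 0.09 to 0.47; limma, adjusted p = 0.0855). Tgfbr2 (ENSMUSG00000032440), the type II receptor of the Tgfb ligands, read 6.69, 6.60, 6.55, 6.73 and 6.51 in the bud and 6.44, 6.37, 6.33, 6.50 and 6.32 in the cap. Its arrays did not overlap, but the lowest bud array and the highest cap array were only 0.0038 apart, and the difference of -0.22 ± 0.07 (SE) log2 units gave an adjusted p of 0.0739 (limma).

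Whether Acvr2a, Acvr1b and Tgfbr2 were called depended on the setting. With array quality weights, or with dim genes left out so that 14509 genes were tested, all of the 3 passed and the count of called genes was 8 of 10. The share of all genes called was larger under these settings too, at 14.2% with weights and 17.2% without dim genes. Among single arrays left out, Acvr2a passed without E13.5 replicate 2 (-0.32; limma, adjusted p = 0.0258) and Acvr1b passed without E13.5 replicate 6 (0.33; limma, adjusted p = 0.0431). The direction of each of the 10 genes was the same under every alternative run. In all, 6 of the 10 genes had arrays that did not overlap between the stages, where 8.84% of all genes did. Of these, 4 were higher and 2 lower in the cap, against 4.82% and 4.01% of all genes.

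**Figure D3:**
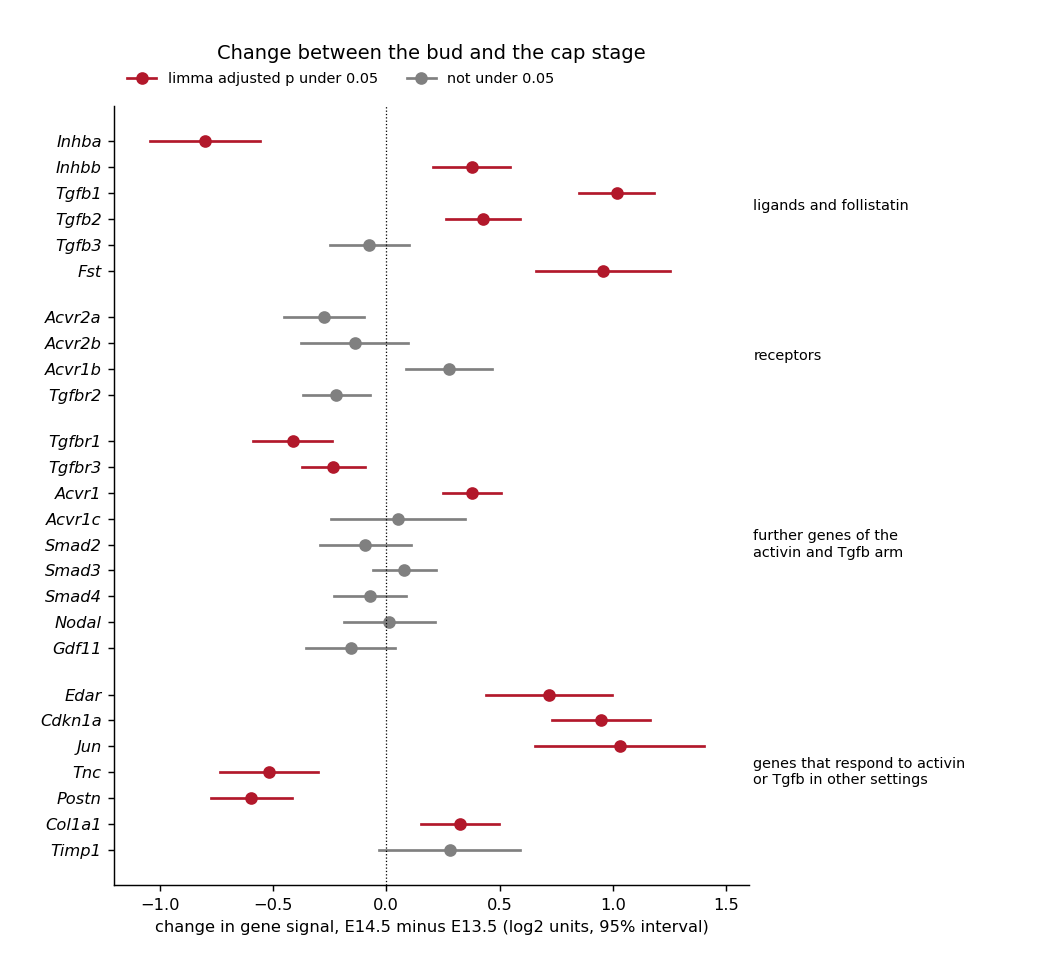
Change in gene signal from E13.5 to E14.5 (horizontal axis, log2 units) of the 10 genes and of 16 further genes. Points are limma estimates, lines are 95% intervals, and red marks an adjusted p under 0.05; the ligands and follistatin run from -0.80 to 1.02, and the 4 receptors from -0.27 to 0.28.

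The nearest partners of these genes were examined as a list of 10 other receptors, Smads and ligands of the activin and Tgfb arm, of which 9 were in the table; Gdf1 had no matching entry. Tgfbr1 and Tgfbr3 were lower in the cap, Acvr1 was higher, and the other 6 did not pass the test. Thus 3 of the 9 genes passed, where 7.85% of all genes did, and their median change was -0.07. Tgfbr1, the type I receptor that works with Tgfbr2, went from 7.94 ± 0.15 to 7.53 ± 0.07 (SD, n = 5 each), a fall of -0.41 ± 0.08 (SE) log2 units (limma, adjusted p = 0.00731), and its arrays did not overlap. Tgfbr3, the co-receptor betaglycan, which presents Tgfb2 and also binds inhibin, changed by -0.23 ± 0.06 (SE) (limma, adjusted p = 0.0445). The call of Tgfbr3 was lost when any 1 of the 10 arrays was left out, with adjusted p between 0.0534 and 0.111.

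Acvr1, a type I receptor used mostly by Bmps and able to bind activin, rose from 6.69 ± 0.03 to 7.06 ± 0.08 (SD, n = 5 each), by 0.38 ± 0.06 (SE) log2 units (limma, adjusted p = 0.00164). The Smads that carry the signal showed no detectable change. Smad2 differed by -0.09 (95% interval -0.29 to 0.11), Smad3 by 0.08 (-0.06 to 0.22) and the shared partner Smad4 by -0.07 (-0.23 to 0.09). The ligands Nodal, with 0.01 (-0.19 to 0.21), and Gdf11, with -0.16 (-0.35 to 0.04), and the type I receptor Acvr1c, with 0.05 (-0.24 to 0.35), did not pass either, and the signals of Nodal (mean 4.93 in the bud) and Acvr1c (4.17) were below the array medians.

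Of the 54 further genes that the study assigns to the Tgfb pathway, Bmp genes included and the 9 above among them, 6 were higher and 6 lower in the cap, 22.2% against the 7.85% of all genes, with a median change of -0.002 log2 units. By role, 4 of 15 ligands and secreted antagonists, 3 of 7 receptors, 2 of 23 intracellular proteins and 3 of 9 transcription factors were called. The largest rises were those of Jun, a subunit of the AP-1 transcription factor (1.03), Sostdc1, a secreted antagonist of Bmp and Wnt signalling (0.95), and Bmp2, a ligand of the enamel knot (0.81). The largest falls were those of Smad9, a Smad of the Bmp arm (-0.63), Bmp4, a ligand of the dental mesenchyme at the bud stage (-0.56), and Map2k6, a kinase upstream of p38 (-0.55).

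Genes known to respond to activin or Tgfb in other settings were described as a list of 7, without regard to direction. At the cap stage 4 were higher, 2 were lower and Timp1 did not pass, where 4.36% of all genes were higher and 3.49% lower. Edar, the ectodysplasin receptor, which activin is known to induce in dental epithelium, rose by 0.72 ± 0.13 (SE) log2 units (limma, adjusted p = 0.00402), while Inhba fell. Cdkn1a, a Cdk inhibitor that marks the enamel knot, rose by 0.95 ± 0.10 (SE; adjusted p = 0.000111), and Jun by 1.03 ± 0.17 (SE; adjusted p = 0.00266), although its E13.5 replicate 1 (7.85) lay above its E14.5 replicate 4 (7.83). The matrix genes did not move one way, since Tnc, which encodes tenascin C, fell by 0.52 and Postn, which encodes periostin, fell by 0.60, whereas Col1a1, a chain of type I collagen, rose by 0.32. The call of Col1a1 held in 4 of the 10 fits with a single array left out (adjusted p from 0.00638 to 0.0757). Timp1, an inhibitor of matrix metalloproteinases, differed by 0.28 ± 0.14 (SE; adjusted p = 0.329) and passed without E13.5 replicate 1 (0.42; adjusted p = 0.0103). Edar and Cdkn1a also stand in the enamel knot list below, Col1a1 in the bone list and Jun among the pathway genes above.

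The profiles over the 10 arrays most like those of Inhba, Fst or Tgfb2 were sought among 395 other genes with a symbol. Symbols came from the study's tables of tooth and signalling genes, so most of the 27528 genes measured were not searched. The nearest genes were those with the smallest root mean square difference after the mean of each gene was taken off. For Inhba they were Spry4, an inhibitor of Fgf signalling, at 0.124 log2 units, the mesenchymal ligand Fgf10 at 0.156 and Fgf13 at 0.167, against a median of 0.471 over all 395. All 3 shared with Inhba their highest array, E13.5 replicate 5. There Inhba stood 0.76 above its own mean, Spry4 0.75, Fgf10 0.53 and Fgf13 0.47. For Fst the nearest were Cdkn1a at 0.116, the ligand Wnt10b at 0.174 and Bmp2 at 0.178, against a median of 0.517, all of which are in the enamel knot list below. On E14.5 replicate 4 all of these were at their lowest among the cap arrays. Fst was at 0.04, Cdkn1a at 0.16, Wnt10b at 0.20 and Bmp2 at 0.09 above their means. This was not particular to them. Among the cap arrays, Tgfb1, Acvr2b and Acvr1b were also lowest on that array, while Inhbb and Tgfb2 were highest on it. That array had the narrowest spread of signals over all genes (SD 1.51) and the lowest quality weight (0.42). For Tgfb2 the nearest were the secretory kinase Fam20c at 0.115, Acvr1 at 0.116 and the ligand Eda at 0.118, against a median of 0.261. These distances describe 10 arrays and were not tested. The nearest genes lie below the median because they were chosen as the smallest distances, so that contrast cannot show unusual likeness. The stage change was left in the profiles, so the distances also reflect how alike the changes were. The change was -0.80 for Inhba, -0.84 for Spry4, -0.78 for Fgf10 and -0.68 for Fgf13.

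**Figure D4:**
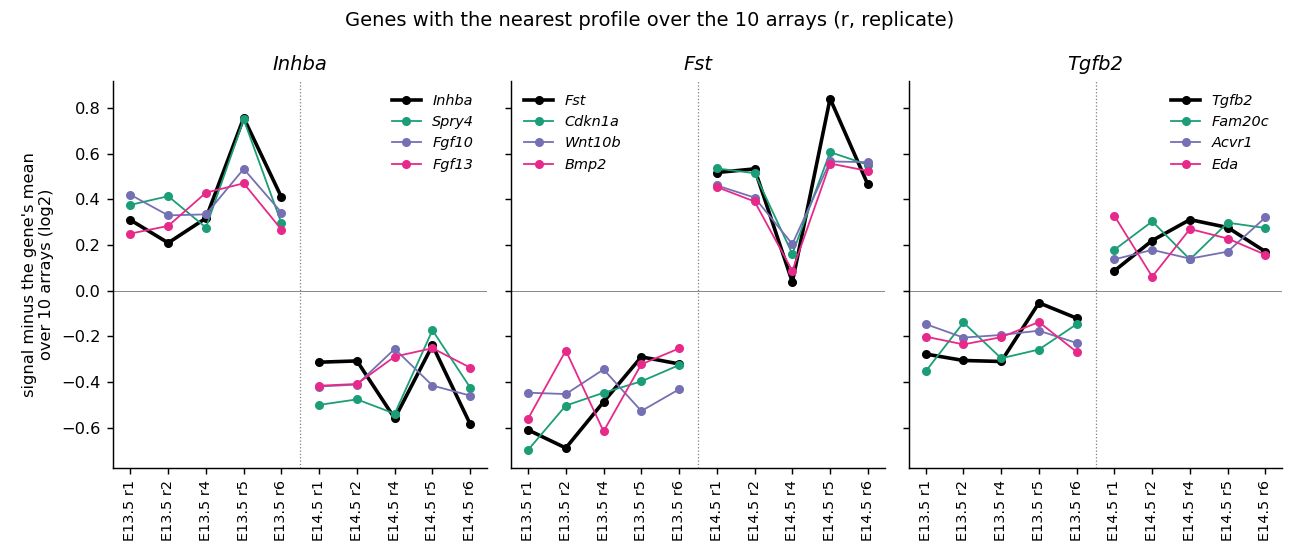
Signal of each gene minus its own mean over the 10 arrays (vertical axis, log2 units) on each array (horizontal axis, r is the replicate number) for Inhba, Fst and Tgfb2 in black and for the 3 genes nearest to each in colour. Nearest genes were sought among 395 other genes with a symbol. Lines only join the points of a stage. E14.5 replicate 4 is the lowest cap array of Fst, Cdkn1a, Wnt10b and Bmp2, and also of other genes not drawn here.

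Whole tooth germs were measured, and fewer cells of a type cannot be told apart from less RNA per cell. Mean signals at E13.5 ran from 7.33 for Dlx1 to 8.97 for Barx1 in the mesenchyme list. Those of the epithelium markers reported ran from 5.73 for Lama3 to 9.60 for Perp. Such levels depend on the probes, and the tissue label was not tested with them. The 5 epithelium markers reported (Trp63, Cdh3, Perp, Lama3 and Nectin1) were higher in the cap, by 0.42 to 0.83 log2 units, with the median of the list between 7.23 and 7.64 on the bud arrays and between 7.91 and 8.26 on the cap arrays. Of the 9 dental mesenchyme markers, 7 were lower, while Dlx2 (0.08) and Runx2 (-0.09) did not pass, and the list median was 7.999 to 8.42 in the bud and 7.35 to 7.47 in the cap. Of the 12 enamel knot markers, 9 were higher, while Fgf9 (-0.01), Fgf20 (0.92, adjusted p = 0.0549) and Bmp7 (0.54, adjusted p = 0.071) did not pass, and the list median went from 5.94 to 6.19 in the bud to 6.82 to 7.15 in the cap. Inhba thus fell on the same arrays on which the mesenchyme list fell, by 0.80 against a median of -0.98 for that list, and Fst rose on those on which the epithelium and enamel knot lists rose, by 0.96 against medians of 0.67 and 0.90. Beside the counts of these and the next marker lists, 4.36% of all genes were higher and 3.49% lower in the cap. The part of cell composition in the changes of these genes was not tested.

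Among the lists of other cells that a germ could carry, only the bone list had medians that did not overlap between the stages. Of 3 endothelium markers Aqp1 rose and Notch4 and Dll4 did not pass, with a list median of 5.46 to 5.95 in the bud and 5.29 to 5.61 in the cap. All 6 bone markers had a positive change, of which Spp1, Alpl and Col1a1 passed and the other 3 did not. The list median was 4.48 to 5.00 in the bud and 5.44 to 5.87 in the cap. None of 4 nerve and glia markers passed (5.10 to 5.39 and 5.22 to 5.32). Whether the markers stood above background was not examined. E13.5 replicate 1 had the lowest epithelium median and the highest mesenchyme median of the bud arrays, and E14.5 replicate 4 had the lowest epithelium and enamel knot medians of the cap arrays and the narrowest spread of signals over all genes (SD 1.51, where the other arrays reached 1.74). With both of these arrays left out, 5 of the 10 genes passed, 4 higher and 1 lower, where 6.7% of all genes passed, 4.09% higher and 2.62% lower.

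**Figure D5:**
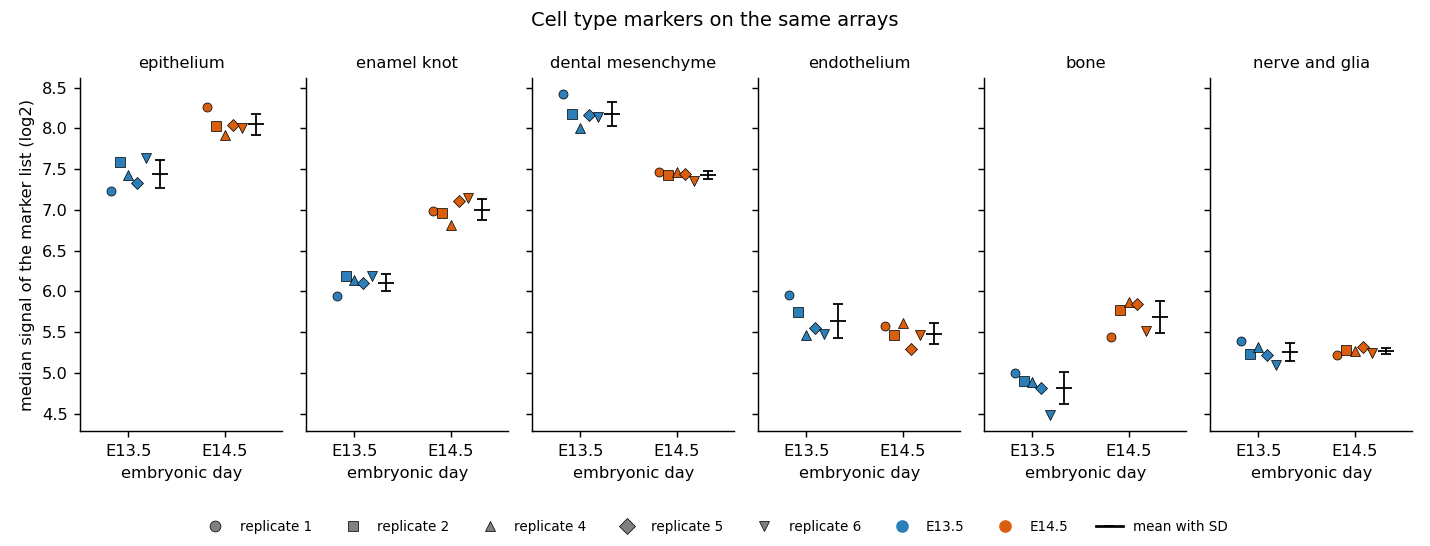
Median log2 signal of 6 lists of cell type markers (vertical axis) at E13.5 and E14.5. Points are arrays, shapes are replicate numbers and bars are the mean with the SD of 5 arrays; the epithelium, enamel knot, dental mesenchyme and bone medians do not overlap between the stages, and those of endothelium and of nerve and glia do.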

How the data were processed

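RNA of 10 samples was hybridised to Affymetrix Mouse Exon 1.0 arrays, 1 per sample. The values deposited by the authors, 1 per gene and array, are gene signals normalized with aroma.affymetrix and a Brainarray probe grouping and were read as log2 values, because they ran from 1.30 to 12.83. The log base, background correction and summary model are not given in the sources used here. Neither detection calls nor scan dates were used here, and precision is limited by the number of arrays.

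A two-sided limma fit (limma 3.58.1, R 4.3.3) of all 10 arrays without covariates compared the stages, with Benjamini-Hochberg adjustment over 27528 genes and a threshold of 0.05. On simulated data with this design 90.5% of genes changed by a full log2 unit, up or down, were recovered. The simulated noise was independent between genes and between arrays, whereas deviations of the real arrays correlated with one another. Far fewer genes were changed in it than were called here. The share recovered is therefore a check of the fit and not the power in the real data. Smaller changes, such as those of the receptors, were not simulated. Symbols came from the gene tables of the study, except the ID of Acvr1b, which came with its name. Python 3.11.15 with numpy 2.4.6, pandas 2.3.3 and matplotlib 3.10.9 did the rest.

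The 10 genes and all lists were chosen with earlier results of these data known. Named besides the 10 genes were every gene of the arm and responsive lists, the 3 largest rises and falls past the threshold among further Tgfb pathway genes, the 3 nearest profiles each of Inhba, Fst and Tgfb2, and marker genes where their list is described; 2 genes of the epithelium list are not reported here and were left out of its counts and medians. Alternatives were quantile normalization, median centring, omission of genes with a mean signal below 5, limma-trend, array quality weights, a replicate block, the SD of each array as a covariate, a threshold of 0.01 and omission of each array.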

Additional observations from a re-analysis of the deposited data

How the results depend on the processing

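Of 190 alternative results for the 10 genes, 175 kept their direction and their side of the threshold and 15 moved past it. None was lost or turned. The threshold of 0.01 is counted among them, although it was applied to the main fit and could not turn a direction. Acvr2a passed with the SD of the arrays as covariate (-0.25), array quality weights (-0.27), limma-trend (-0.27), quantile normalization (-0.24) and without dim genes (-0.27), and Acvr1b with the covariate (0.30), weights (0.33), quantile normalization (0.31) and without dim genes (0.28). Tgfbr2 passed with weights (-0.24), limma-trend (-0.22) and without dim genes (-0.22). With single arrays left out the change ran from -0.32 to -0.23 for Acvr2a, 0.23 to 0.33 for Acvr1b, -0.85 to -0.71 for Inhba, 0.34 to 0.42 for Inhbb, 0.87 to 1.07 for Fst, 0.97 to 1.05 for Tgfb1, 0.40 to 0.47 for Tgfb2, -0.11 to -0.011 for Tgfb3, -0.20 to -0.07 for Acvr2b and -0.25 to -0.19 for Tgfbr2. Acvr2b was at -0.064 with weights, and Tgfb3 at -0.042 with quantile normalization. The count of called genes of the 10 was 8 with weights and 8 without dim genes, a filter that leaves 14509 genes in the adjustment, and 5 to 6 with an array left out. Over all genes the count was 3911 with weights (14.2%), 2492 without dim genes (17.2% of those tested), 1155 at a threshold of 0.01 and 1479 to 2554 with an array left out. Acvr1c and Nodal, both dim, turned sign: Acvr1c to -0.017 with the covariate and -0.0035 with weights (-0.050 to 0.13 with an array left out), and Nodal to -0.024 with the covariate (-0.043 to 0.062). At a threshold of 0.01, 3 of the 5 epithelium markers passed. The shift of Fst minus Inhba ran from 1.71 to 1.90. Leaving out both E13.5 replicate 1 and E14.5 replicate 4, and every alternative for that shift and for the marker lists, was chosen after seeing the data. With both arrays left out Acvr1c was at -0.071, Nodal at -0.047, Tgfb3 at -0.0082 and Tgfbr3 no longer passed (adjusted p = 0.0965). The cause of these differences was not tested.

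Both stages carry the replicate numbers 1, 2, 4, 5 and 6. Deviations of same-numbered arrays from their stage means correlated across genes at 0.39, -0.08, 0.51, 0.03 and 0.28. Those of differently numbered arrays correlated at -0.57 to 0.42. For replicates 1 and 4 the same-numbered array of the other stage was the closest. Whether the numbers pair the samples was not settled, and the main fit did not use them. With a replicate block 2077 genes passed in all and 6 of the 10 genes, Acvr2a being added (-0.27; adjusted p = 0.0459), and Tgfbr3 was lost (adjusted p = 0.0818).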
